A study of Mus musculus with 22 samples.

Results

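Broad H3K27ac domains were taken as the regions of the deposited H3K27ac tables that spanned at least 10000 bp, on chromosomes 1 to 19 without 8. They were thus chosen by the width of the called H3K27ac signal, a measured value. There were 470 of them among 135566 regions in all, 0.375% of the 125232 regions on the same chromosomes and 3.77% of the bases those regions covered. Another 32 regions of that width lay on chromosomes 8, X and Y and were left out. The regions came from chromatin immunoprecipitation with sequencing (ChIP-seq) of induced pluripotent stem (iPS) cells, which are cells returned to a pluripotent state, made from embryonic fibroblasts of C57BL/6 mice. C2+SKM cells had been transduced with the zinc-finger artificial transcription factors ZFATF1, ZFATF2 and ZFATF3 together with Sox2, Klf4 and c-Myc, and C3+SKM cells with ZFATF1, ZFATF2 and ZFATF4 together with Sox2, Klf4 and c-Myc. OSKM cells, the line both were set against, had received Oct4, Sox2, Klf4 and c-Myc. All 3 lines carried an Oct4-MerCreMer fluorescent reporter, were given 100 nM 4-hydroxytamoxifen and were grown with the cytokine LIF. H3K27ac and the repressive mark H3K9me3 were each measured in 2 libraries per line, and the HA tag of the artificial factors in 2 libraries of C2+SKM cells and 2 of Empty+SKM cells, the negative control, at day 20 after transduction. The factor set goes with the line, so the artificial factors, the lack of transduced Oct4 and the line itself cannot be told apart, and the labels do not say whether the libraries of a line came from separate cultures, so p-values measure only the spread between these libraries.

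H3K27ac is acetylation of lysine 27 on histone H3 and marks active enhancers and promoters. Most such sites are short, but some genes that hold a cell's identity lie in long, nearly unbroken stretches of the mark, which overlap with what are called super-enhancers. In mouse pluripotent cells such stretches are known at genes of the core regulatory circuit, among them Nanog, Esrrb and the miR-290 microRNA cluster.

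The miR-290 cluster lay in the domain with the most H3K27ac per base in 5 of the 6 libraries. It ran over chr7:3198259-3224242 (mm10), was 25984 bp wide and is named here by its coding gene Nlrp12. The cluster's microRNAs are the most abundant ones of mouse embryonic stem cells and act on cell cycle inhibitors through a shared seed, the bases that pair with a target. In the RefSeq microRNA table (GRCm38.p6) 17 mature microRNAs of 9 genes fell in this domain, with 11 different seeds, over 2200 bp that began 20379 bp after the domain's start. Shown are the arms whose seed is shared by 3 arms, with the seed (bases 2 to 8) in capitals. Seeds shared by only 2 arms, such as that of miR-291a-5p and miR-291b-5p, are not shown.
mmu-miR-291a-3p: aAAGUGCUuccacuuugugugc
mmu-miR-294-3p: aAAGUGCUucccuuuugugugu
mmu-miR-295-3p: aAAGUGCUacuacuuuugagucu
mmu-miR-290a-5p: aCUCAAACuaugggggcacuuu
mmu-miR-292a-5p: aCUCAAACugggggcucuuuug
mmu-miR-293-5p: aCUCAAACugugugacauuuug
The first 3 share one seed and the last 3 another.

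Promoters of 4 genes whose domains carry results below are shown 5′ to 3′ on the gene's own strand, from 250 bases before the start of transcription to 50 after it (RefSeq, GRCm38.p6). Nanog, a core pluripotency factor, starts at chr6:122707239-122707538 on the plus strand and holds a match to the composite Oct4-Sox2 motif, in capitals and read on the opposite strand.
Nanog: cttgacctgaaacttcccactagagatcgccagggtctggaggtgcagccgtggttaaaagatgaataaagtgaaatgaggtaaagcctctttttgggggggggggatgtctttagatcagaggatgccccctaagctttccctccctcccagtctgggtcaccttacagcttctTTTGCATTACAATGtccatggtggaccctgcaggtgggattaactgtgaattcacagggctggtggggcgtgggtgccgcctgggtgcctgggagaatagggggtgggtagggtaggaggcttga
Fgf4, a growth factor that acts on pluripotent cells, starts at chr7:144861136-144861435 on the plus strand and holds a GC box GGGCGGG, in capitals.
Fgf4: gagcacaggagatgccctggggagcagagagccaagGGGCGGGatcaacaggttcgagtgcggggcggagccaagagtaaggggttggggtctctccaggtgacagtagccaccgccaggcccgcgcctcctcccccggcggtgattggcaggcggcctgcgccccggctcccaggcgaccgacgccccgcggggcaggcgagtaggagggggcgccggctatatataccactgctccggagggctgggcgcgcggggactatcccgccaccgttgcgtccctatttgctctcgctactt
Lamb1, a laminin chain of the basement membrane, starts at chr12:31265043-31265342 on the plus strand, and the noncoding gene Gm34081 at chr12:109526220-109526519 on the minus strand. Neither window holds a match to any of the 6 motifs searched.
Lamb1: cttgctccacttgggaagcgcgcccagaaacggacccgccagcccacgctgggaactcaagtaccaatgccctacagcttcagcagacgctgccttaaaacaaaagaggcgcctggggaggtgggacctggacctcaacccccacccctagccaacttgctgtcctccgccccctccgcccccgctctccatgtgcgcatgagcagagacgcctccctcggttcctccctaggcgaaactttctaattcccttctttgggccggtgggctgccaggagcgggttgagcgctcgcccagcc
Gm34081: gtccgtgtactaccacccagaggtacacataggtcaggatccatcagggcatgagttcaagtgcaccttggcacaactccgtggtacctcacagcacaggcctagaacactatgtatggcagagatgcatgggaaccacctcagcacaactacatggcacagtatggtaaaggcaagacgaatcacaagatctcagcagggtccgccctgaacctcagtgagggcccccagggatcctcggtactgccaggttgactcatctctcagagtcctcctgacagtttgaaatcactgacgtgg
These windows mark where in each domain transcription starts, and only the first shows letters of the factor pair that OSKM cells were given.

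Most domains held no start of transcription of the RefSeq promoter table. Of the 458 domains on chromosomes covered by the promoter table, 173 (37.8%) held at least 1 start, in all 263 starts of 226 genes. The median GC content of these 263 promoters was 55.7%, against 53.0% in all 29954 promoters of the same chromosomes, and the median ratio of observed to expected CpG was 0.471, against 0.388. The composite Oct4-Sox2 motif was in 2 of the 263 (0.760%), against 2 of 29954 (0.00668%), and both are overlapping Nanog starts that contain the same site. Searched on both strands, the octamer ATGCAAAT was in 0.380% of domain promoters, against 1.72% of all, and the Sox2 core CATTGTT in 1.90%, against 3.84%. Both can overlap the composite motif. The Esrrb motif TCAAGGTCA was in 0.760%, against 0.404%, the GC box GGGCGGG in 28.9%, against 25.8%, and TATAAA in 11.8%, against 13.7%. These are descriptions of letters in the windows and not of bound sites.

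The domains were 10000 to 41249 bp wide with a median of 12334.5 bp, where the median H3K27ac region of these chromosomes spanned 1001 bp. In total they covered 6.47 Mb. Just inside the limit were domains at Ncoa7 (10000 bp), Gm4035 (10003 bp) and Csnk1e (10008 bp). Their log2 fold changes in C3 against OSKM were 0.96, 0.74 and −0.19. Just outside were regions of 9993 bp at chr11:104310641-104320633, 9988 bp at chr6:72506314-72516301 and 9983 bp at chr2:157414116-157424098, with 0.92, −0.39 and −0.13 in the same comparison. Only 39 domains reached 20000 bp. Chromosome 4 held 49, chromosome 11 held 42 and chromosome 2 held 41. A protein-coding gene overlapped 317 domains and only noncoding genes overlapped 71. The other 82 overlapped no annotated gene, and their median distance to a coding gene was 18187 bp. Some genes, such as Esrrb, Plpp3 and Tns3, had more than 1 domain.

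The widest domain, 41249 bp at chr15:100241223-100282471, covered Atf1, a transcription factor of the CREB family, and Tmprss12. Its H3K27ac level, in reads per kb scaled to the library's total of reads in regions (RPKM), was 16.7 and 13.7 in C2, 22.9 and 16.9 in C3, and 19.1 and 18.5 in OSKM. The lines overlapped in part: C2 lay below OSKM, and C3 lay on both sides of it. The next widest lay at Bcat2 (33499 bp), an enzyme of branched-chain amino acid breakdown, then Etl4 and Gm22984. Tns3, F2rl1, Plpp3, Ccnd3 and Gm41564 were also among the 10 widest, the last at 28747 bp. None of the 10 was called in any comparison of H3K27ac, by the test given below.

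The union of peaks across libraries set the width of a region, so breadth in one line is a description. The authors' peaks covered a median of 92.3% and 66.2% of a domain in the 2 libraries of C2, 96.9% and 95.5% in C3, and 91.1% and 88.9% in OSKM. The longest unbroken peak in a domain had a median of 5978 and 2568 bp in C2, 10163 and 7742 bp in C3, and 6827 and 6440 bp in OSKM. A single peak of at least 10000 bp was seen in 69 domains in the first C2 library and 0 in the second, in 250 and 143 in C3, and in 99 and 85 in OSKM. Over either library of a line this was 69 domains in C2, 282 in C3 and 125 in OSKM, with 40 in all 3 lines, 151 in C3 alone and 168 in no library. When peaks within 1000 bp were joined, the counts became 404 and 171 in C2, 410 and 425 in C3, and 348 and 329 in OSKM. The second C2 library stood apart in each of these measures. The median fold enrichment of all its peaks was 3.62, where the other 5 libraries had 4.20 to 4.86, and its 7033486 reads in regions were the fewest of the 6 libraries, against 17649231 in the first C3 library, the most. Of the 470 domains, 379 were covered to at least 50% by peaks in every library.

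**Figure D1:**
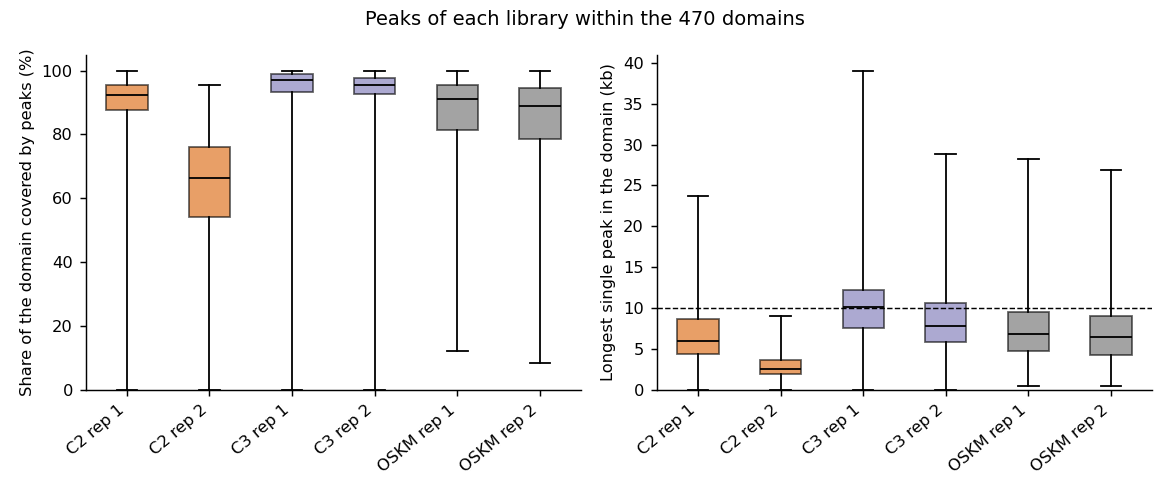
Breadth of the 470 domains in each of the 6 H3K27ac libraries: share of a domain covered by the library's own peaks (left, percent) and longest single peak (right, kb). Boxes give the quartiles and median and whiskers the full range. The second C2 library has the lowest median coverage (66.2%) and no peak of 10000 bp, and both C3 libraries have the longest peaks.

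The domains were also dense in reads, which is a description, as peaks of the same reads chose them. Their median was 171 and 84.5 reads per kb in C2, 276 and 150 in C3, and 195 and 211 in OSKM. In the other regions of the same chromosomes it was 40.2 and 21.2 in C2, 38.4 and 33.1 in C3, and 18.8 and 24.0 in OSKM. These are read numbers with no scaling for depth. Of the reads in regions of the same chromosomes, the domains took 9.47% and 8.30% in C2, 11.4% and 9.70% in C3, and 11.8% and 11.3% in OSKM. Both C2 libraries were thus below both OSKM libraries in this share. Levels of markers were scaled to the reads in regions of all chromosomes, unlike the RPKM of the domains. Summed over 8 markers of pluripotent cells (Pou5f1, Sox2, Nanog, Esrrb, Zfp42, Tdgf1, Dppa5a and Lin28a), the H3K27ac level was 136 and 117 in C2, 184 and 136 in C3, and 225 and 223 in OSKM, so all lines carried the mark at these genes. For 8 markers of primitive endoderm, an early extraembryonic tissue (Gata4, Gata6, Sox17, Foxa2, Sox7, Dab2, Cubn and Lamb1), the sum was 69.8 and 51.7 in C2, 84.6 and 65.4 in C3, and 19.1 and 24.2 in OSKM, and each of the 8 was above both OSKM libraries in both lines. For the 6 of 8 fibroblast markers with a region it was 18.7 and 17.7 in C2, 10.7 and 16.8 in C3, and 9.47 and 13.1 in OSKM, and the defining markers Col1a2 and Dcn had no region. The part of these markers in the results was not tested. In bulk samples fewer cells of a type and less mark per cell cannot be told apart.

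C2 was set against OSKM to ask how the broad domains differ when the artificial factors take the place of Oct4. H3K27ac was lower in C2 at 82 of the 470 domains (17.4%) and higher at 5 (1.06%), by limma with a trend on log2(normalized reads + 1) at a Benjamini-Hochberg adjusted p under 0.05. Over all 100957 regions tested, 5.38% were lower and 5.21% higher (10.6% called in all). The split of the domains was 7 lower and 67 higher after quantile normalization, against 1.25% and 2.06% over all regions. It was 177 lower and 37 higher after scaling to reads in regions, against 3.69% and 9.58%. All 470 domains passed the filter on low values. The median log2 fold change of the domains was −0.65, against −0.01 over all regions tested, with quartiles of −0.88 and −0.30, but it was 0.13 after quantile normalization, where the median of all regions was −0.03. Both C2 libraries lay below both OSKM libraries in 360 domains and above them in 22, and the lines overlapped in 88. Over all regions these shares were 30.3% below and 28.8% above. Because the same H3K27ac reads chose the domains, these counts describe them and are no independent test.

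The number of lower calls hung on single libraries. With either OSKM library left out, only the Gm34081 domain stayed called lower of the 82 (adjusted p of the others 0.13 to 0.655 without the first and 0.117 to 0.606 without the second), although all 82 kept their sign. All 82 also kept their sign with either C2 library left out. After quantile normalization, 7 of the 82 were called lower. Of the 173 domains that hold a start, 29 were lower and 2 higher, and of the 285 without one 52 were lower and 3 higher. Of the 379 domains covered to 50% in every library, 65 were lower and 1 higher.

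**Figure D2:**
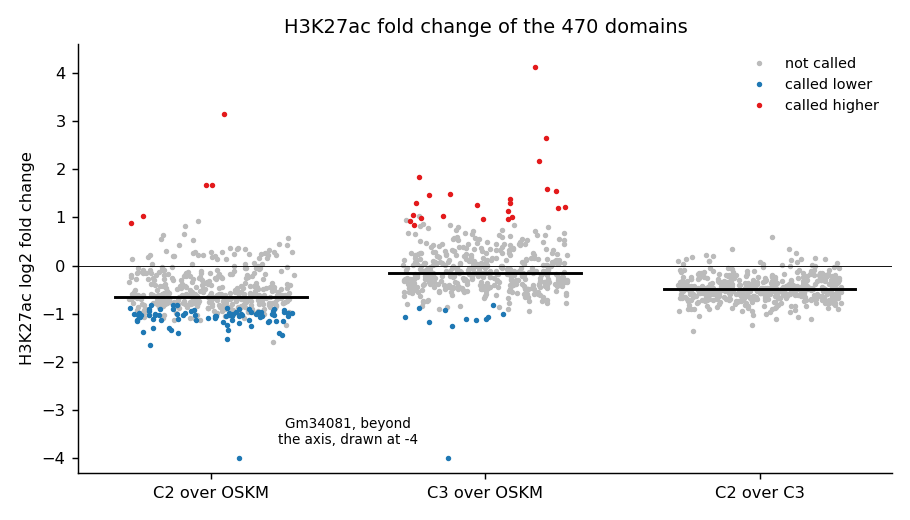
Log2 fold change of H3K27ac for each of the 470 domains (points, coloured by limma call) in C2 against OSKM, C3 against OSKM and C2 against C3, from the authors' normalized reads. Gm34081 lies beyond the axis and is drawn at its lower end. The bar is the domains' median, −0.65, −0.15 and −0.49, where all regions have −0.01, 0.03 and −0.06, and after quantile normalization the domain medians are 0.13, 0.10 and 0.03.

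Domains at regulators of pluripotency were among the lower ones. Of 35 genes on the list of naive and core pluripotency regulators, 9 had a broad domain within 2500 bp, 10 domains in all. Of these, 4 were lower in C2 than in OSKM, where 82 of all 470 domains (17.4%) were. The median log2 fold change of the 10 was −0.96, against −0.65 over all 470 domains. After quantile normalization it was −0.13, against 0.13, with 7 of the 10 below 0 and 0 called. At Nanog (chr6:122697878-122711236), the homeobox factor of the core circuit, the H3K27ac level was 15.4 and 15.2 RPKM in C2 and 28.4 and 28.7 in OSKM. The log2 fold change was −1.19 ± 0.24 (SE, n = 2 each), with an adjusted limma p of 0.0256. Both C2 libraries were well below both OSKM libraries. The C3 libraries, 18.5 and 16.4, lay between them.

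Esrrb, an orphan nuclear receptor that upholds naive pluripotency, had a pair of domains. The first (chr12:86466468-86485084, 18617 bp) had 15.0 and 12.3 RPKM in C2 and 24.8 and 23.2 in OSKM, with a log2 fold change of −1.11 ± 0.28 and an adjusted limma p of 0.0422. The second (chr12:86501592-86511858) had 18.4 and 13.0 in C2 and 27.9 and 28.3 in OSKM, with −1.16 and an adjusted limma p of 0.0427. No C2 library reached an OSKM library in either. Nr5a2, a nuclear receptor that can stand in for Oct4 in reprogramming, had 10.9 and 11.7 in C2 and 18.7 and 18.4 in OSKM at chr1:136946486-136959636, with −1.01 and an adjusted limma p of 0.0296.

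The other 6 domains of that list were not called. Tfcp2l1, a target of LIF signalling, had 20.9 and 18.1 RPKM in C2 and 30.8 and 28.1 in OSKM (adjusted limma p 0.0725). The domain at Tdgf1, a co-receptor for Nodal, had 19.8 and 18.7 in C2 and 32.7 and 30.4 in OSKM (adjusted limma p 0.0549). The groups did not overlap in either domain, with log2 fold changes of −0.89 and −1.01. At Utf1, a chromatin factor of pluripotent cells, the levels were 14.5 and 13.9 in C2 and 21.1 and 19.3 in OSKM, and at Dppa5a 18.6 and 17.5 in C2 and 25 and 26 in OSKM. Sall4 and Tbx3 had log2 fold changes of −0.67 and −0.92, with adjusted limma p of 0.139 and 0.0694.

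Ligands, receptors and feedback genes of the signals that keep cells pluripotent formed a second group. Of 30 listed genes 7 had a broad domain, of which 4 were lower in C2, against 17.4% of all 470 domains. The median log2 fold change of the 7 was −0.98, and −0.19 after quantile normalization, under which 1 was called. The ligand Fgf4 (chr7:144857995-144869761) had 14.9 and 13.2 RPKM in C2 and 23.2 and 21.9 in OSKM, with −0.98 ± 0.25 and an adjusted limma p of 0.0428. The ligand Nodal (chr10:61410371-61421681) had 13.4 and 11.3 in C2 and 19.1 and 19.2 in OSKM, with −0.94 ± 0.25 and an adjusted limma p of 0.0484. Both genes were thus lower in each C2 library.

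The receptor of the LIF pathway, Lifr (chr15:7110812-7124361), had 15.9 and 11.4 RPKM in C2 and 24.5 and 23.9 in OSKM, with a log2 fold change of −1.14 ± 0.29 and an adjusted limma p of 0.0446. The largest difference of the group was in the domain of Lefty2, a secreted inhibitor of Nodal, named for the overlapping Gm39714 (chr1:180881911-180895723). It had 10.4 and 11.5 in C2, 12.8 and 10.9 in C3, and 29.9 and 26.0 in OSKM, and was lower in C2 (−1.64 ± 0.23, adjusted limma p 0.0127) and in C3 (−1.24 ± 0.33, adjusted limma p 0.0341). It was the one called after quantile normalization in C2, at −0.82 with an adjusted limma p of 0.0472. The feedback genes Socs3, Etv5 and Spry4 missed the threshold, with adjusted limma p of 0.0626, 0.0512 and 0.0706.

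**Figure D3:**
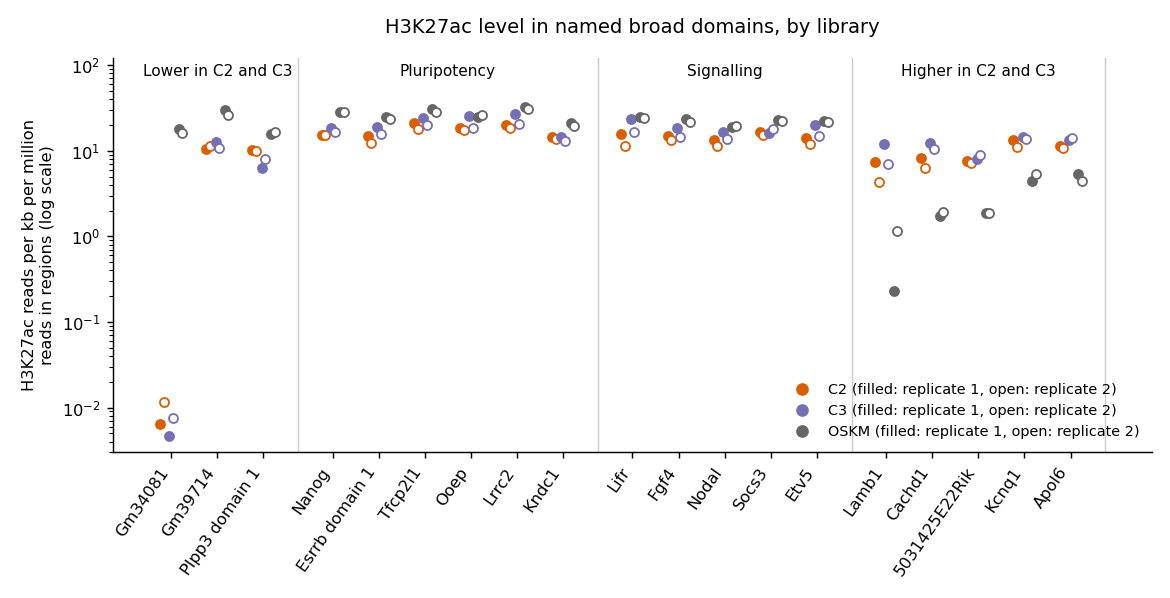
H3K27ac level (RPKM, reads per kb scaled to the total of reads in regions) on a log axis in each library at named domains, with C2, C3 and OSKM in separate colours and 2 points per line. Ooep, Lrrc2 and Kndc1 name the domains at Dppa5a, Tdgf1 and Utf1. Nanog and Lifr show both C2 points below both OSKM points, Lamb1 shows both OSKM points lowest, and Gm34081 has its C2 and C3 points at 1 read.

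The miR-290 domain, whose seeds are given above, had 25.3 and 17.2 RPKM in C2, 38.7 and 24.2 in C3, and 40.8 and 38.7 in OSKM. C2 lay below OSKM without overlap, but the difference was not called (−1.23 ± 0.36, adjusted limma p 0.064). In the second C2 library its level ranked 38 among the domains. No other domain lay near the 20 listed microRNA hosts. Of the TET enzymes, which oxidise methylated cytosine, Tet1 and Tet2 had domains with log2 fold changes of −0.94 and −0.49 in C2, neither called. The 3 domains of the cell cycle list (median −0.64) were not called either. Nor were the single one at Hspa8 (−1.03), of the housekeeping list, and the one at Fn1, a fibroblast matrix gene (−0.79). Hspa8 was thus lower than the median of the pluripotency domains (−0.96). None of 30 epithelial genes had a broad domain.

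The Gm34081 domain (chr12:109521366-109534179, 12814 bp) was at the bottom of the scale in both lines made with artificial factors. It held 1 read, the lowest value of the tables, in each of the C2 and C3 libraries, and 2589 and 2651 reads in the OSKM libraries, 17.9 and 16.2 RPKM. It was called lower in C2 and in C3 (adjusted limma p 3.89e-05 and 6.83e-05), and stayed called under every setting tried in both comparisons. If the lowest value is a count of reads, a floor of 3 reads per library puts the domain at least 793-fold lower in C2 and 949-fold lower in C3. In the C2 and C3 libraries 29.9% to 33.48% of all H3K27ac regions held that value. Whether it is a count or a lower limit set in processing was not tested, so the size of the difference is not settled. The domain lies in the imprinted Dlk1-Dio3 interval, 58030 bp after Dlk1, a paternally expressed gene, and 6817 bp before Meg3, a maternally expressed noncoding RNA. The stretch between those genes is known to hold the interval's imprinting control region.

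Other regions of that interval, chosen after their values were seen, were low as well. Between Dlk1 and Dio3 (828.6 kb) there were 56 H3K27ac regions and 39 were tested. C2 was called lower than OSKM at 16 and C3 at 11, and no region was called higher, where 5.38% and 8.52% of all regions tested were lower. Of 28 regions with at least 10 reads in both OSKM libraries, 8 were at 1 read in both C2 libraries and 5 in both C3 libraries. The Meg3 region at chr12:109539921-109542923 held 1 read in each C2 and C3 library and 318 and 423 in OSKM. Farther downstream, chr12:109858760-109861799 held 188 and 76 reads in C2, 227 and 169 in C3, and 160 and 181 in OSKM, and was not called in either comparison. The interval also held 16 H3K9me3 regions, of which 4 were called lower in C2, and 5 lower and 1 higher in C3. Over all H3K9me3 regions tested 2.90% were lower in C2, and 7.35% lower and 1.72% higher in C3. The one at Rtl1, a paternally expressed retrotransposon-derived gene (chr12:109591475-109595486), held 122 and 96 reads in C2, 236 and 71 in C3, and 808 and 789 in OSKM. It was called lower in both, with log2 fold changes of −2.20 and −2.23 and adjusted limma p of 3.58e-05 and 0.000135.

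Only 5 domains were higher in C2, and all 5 were also higher in C3, a pair of comparisons that share the OSKM libraries. Lamb1 (chr12:31260575-31270719) had 7.42 and 4.34 RPKM in C2, 12 and 6.95 in C3, and 0.227 and 1.15 in OSKM. The log2 fold change was 3.15 ± 0.66 in C2 and 4.12 ± 0.68 in C3, with adjusted limma p of 0.0272 and 0.00725. The call in C2 was lost without the first C2 library (adjusted p 0.119), without the second (0.0678), after quantile normalization (0.0616) and under DESeq2, and the one in C3 without the first C3 library (0.0718). Lamb1 is one of the primitive endoderm markers whose summed level is given above.

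Cachd1, a subunit associated with calcium channels (chr4:100789879-100800043), had 8.16 and 6.30 RPKM in C2, 12.5 and 10.6 in C3, and 1.75 and 1.92 in OSKM. The noncoding gene 5031425E22Rik (chr5:23405699-23416531) had 7.68 and 7.18 in C2, 8.10 and 8.92 in C3, and 1.90 and 1.87 in OSKM. Neither domain's C2 or C3 libraries came near those of OSKM. The log2 fold changes were 1.67 ± 0.25 and 1.68 ± 0.21 in C2 and 2.64 ± 0.25 and 2.16 ± 0.21 in C3, with adjusted limma p between 0.0031 and 0.0134, and both domains stayed called under every setting. Kcnq1, an imprinted potassium channel gene (chr7:143115649-143126235), had 13.2 and 11.0 in C2, 14.6 and 13.8 in C3, and 4.39 and 5.32 in OSKM. Its log2 fold change was 1.02 ± 0.24 in C2 and 1.54 ± 0.26 in C3, with adjusted limma p of 0.0369 and 0.00748. The domain at Apol6 and Mb (chr15:77049338-77062807), Mb being the oxygen-binding myoglobin gene, had 11.3 and 10.8 in C2, 13.4 and 14.1 in C3, and 5.38 and 4.48 in OSKM. Kcnq1 and Apol6 were no longer called in C2 when either OSKM library was left out.

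The domains lower in C2 with the next largest differences lay at Sntg1, Smarcad1 and Ptprg. Sntg1, a syntrophin scaffold gene, had 11.8 and 8.52 RPKM in C2, 18.7 and 12.9 in C3, and 23.2 and 23.5 in OSKM, with a log2 fold change of −1.51 ± 0.28 and an adjusted limma p of 0.0201. Smarcad1, a chromatin remodeller that acts in maintaining silent chromatin, had 16.2 and 12.9 in C2, 28.1 and 18.6 in C3, and 32.4 and 31.2 in OSKM, with −1.43 and an adjusted limma p of 0.0231. Ptprg, a receptor tyrosine phosphatase, had 10.4 and 7.61 in C2, 12.9 and 10.3 in C3, and 20.3 and 18.1 in OSKM, with −1.41 and an adjusted limma p of 0.0244. In C3 none of these 3 was called, with −0.60, −0.48 and −0.74.

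C3 was set against the same OSKM libraries, and its domains showed a different balance. H3K27ac was higher in C3 at 23 of 470 domains (4.89%) and lower at 12 (2.55%), against 13.5% higher and 8.52% lower over all 101600 regions tested (22.0% called in all). Both shares were below the background with the authors' scaling. After quantile normalization 109 of the 470 were higher and 26 lower, against 10.5% and 8.56% over all regions. After scaling to reads in regions 69 were higher and 62 lower, against 14.1% and 7.67%. The share higher was above that of all regions after quantile normalization and close to it when scaled to reads in regions. The share lower was above that of all regions only when scaled to reads in regions. The median log2 fold change was −0.15, against 0.03 over all regions, and 0.10 after quantile normalization. Both C3 libraries were above both OSKM libraries in 94 domains and below in 163, and overlapped in 213, against 33.0% above and 30.4% below over all regions. Of the 379 domains covered to 50% in every library, 6 were higher and 10 lower.

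Besides the 5 shared with C2, 18 domains were higher in C3. Creb5, a transcription factor of the CREB family (chr6:53554558-53566012), had 19.6 and 14.1 RPKM in C3 and 4.66 and 6.40 in OSKM, with a log2 fold change of 1.6 ± 0.33 and an adjusted limma p of 0.014. The noncoding gene Gm38956 (chr11:94265497-94277167) had 12.6 and 13.7 in C3 and 2.73 and 4.88 in OSKM, with 1.84 ± 0.31 and an adjusted limma p of 0.00795. In C2 their log2 fold changes were 0.34 and 0.46, neither called. Kdm2b, a histone demethylase that binds CpG islands, Lama3, a laminin chain, Svil, Gpd2, Acss1, Grik3 and Ncoa7 were among the rest. Without the first OSKM library, Lamb1, Cachd1 and 5031425E22Rik were the 3 of the 23 still called, and without the second those and Gm38956. All 23 kept their sign with either C3 library left out.

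Of the 12 domains lower in C3, 9 were also called lower in C2 (among them Tead1, Gm39714, Zdhhc18, Gm34081, Fbxo36 domain 3, Gm35510, Ddi2 and Plpp3 domain 1), again against shared OSKM libraries, and 0 domains were called in opposite ways. Plpp3, a lipid phosphatase, had 10.1 and 10.0 RPKM in C2, 6.35 and 8.12 in C3, and 15.7 and 16.7 in OSKM at its first domain (chr4:105189553-105199771). The log2 fold change was −0.98 ± 0.22 in C2 and −1.18 ± 0.24 in C3, with adjusted limma p of 0.0302 and 0.0133. Skp1, a subunit of the SCF ubiquitin ligase (chr11:52223130-52234037), was lower in C3, with 6.70 and 7.00, against 14.7 and 15.1 in OSKM (−1.12 ± 0.25, adjusted limma p 0.0169). In C2 it had 12.3 and 12.3 and was not called. With either OSKM library left out, Gm34081 was the only one of the 12 still called lower.

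None of the 10 pluripotency domains was called in C3 by limma or by edgeR, and none had an unadjusted limma p under 0.05. DESeq2 called 3 lower, as did limma after scaling to reads in regions, and 1 was called lower after quantile normalization. Their median log2 fold change was −0.45, and −0.19 after quantile normalization. Nanog had −0.72 ± 0.34 (adjusted limma p 0.172), Nr5a2 −0.64 (adjusted limma p 0.148), and the first and second Esrrb domains −0.47 and −0.48. The miR-290 domain had −0.38. In the signalling group the domain of Lefty2 was the one called. That these domains passed the threshold in C2 and not in C3 does not show that the lines differ, which the direct comparison addresses.

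C2 against C3 gave no call in either direction among the 469 domains tested by limma (Gm34081, at 1 read throughout, was not tested), against 0.0305% lower and 0.0276% higher over all 101532 regions (0.0581% in all). At an unadjusted limma p under 0.05, 11 domains were lower in C2 and 0 higher. Of all 101532 regions, 12460 passed that threshold in either direction, a larger share than among the domains. Among the domains edgeR called 0 and DESeq2 called 11 lower. Of all regions DESeq2 called 559 lower, a smaller share than among the domains. The median log2 fold change was −0.49, against −0.06 over all regions, and 0.03 after quantile normalization. Both C2 libraries were below both C3 libraries in 232 domains and above in 9, and overlapped in 229, against 22.2% below and 19.3% above over all regions. At Nanog the log2 fold change was −0.44 with an adjusted limma p of 0.78. The libraries of each line differed from each other: the first C3 library had the higher level at Nanog, Esrrb, Lifr, Fgf4 and Nodal, and so had the first C2 library.

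Width and the fold change went together over all H3K27ac regions of the same chromosomes. For C2 against OSKM the median log2 fold change was 0.17 in regions under 1000 bp (n = 40579), 0.14 from 1000 to 2000 bp, −0.24 from 2000 to 5000 bp and −0.44 from 5000 to 10000 bp. It was −0.63 in the 360 domains under 15000 bp and −0.76 in the 110 domains from 15000 bp. In C3 against OSKM the same widths gave 0.11, 0.11, 0.02, −0.03, −0.12 and −0.20, and in C2 against C3 they gave 0.06, 0.04, −0.26, −0.41, −0.48 and −0.52. After quantile normalization the medians no longer fell with width, and regions under 1000 bp had the lowest median in both comparisons with OSKM. C2 against OSKM gave −0.11, 0.09, 0.09, 0.14, 0.14 and 0.10, and C3 against OSKM −0.17, −0.01, 0.08, 0.12, 0.11 and 0.08. In C2 against C3 the medians were then 0.002, 0.10, −0.01, −0.003, 0.02 and 0.04. Scaling to reads in regions moved the median of all regions by more than 0.1, to 0.33 in C2 against OSKM, and the domains' median was then −0.30, 0.63 below it. With the authors' scaling the domains lay 0.64 below all regions, and after quantile normalization 0.16 above. Quantile normalization gives every library the same distribution of values.

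**Figure D4:**
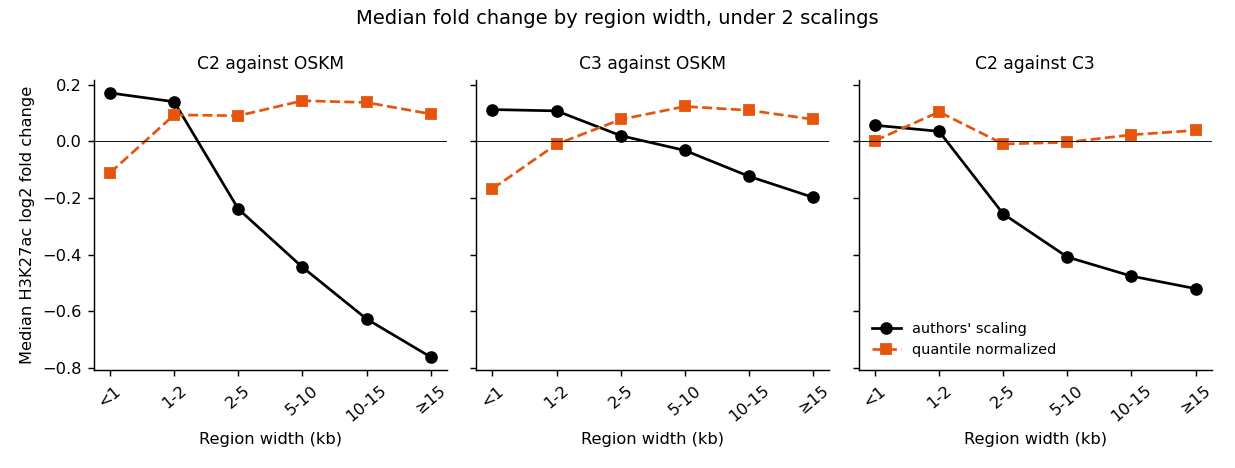
Median log2 fold change of H3K27ac by region width (6 bins, in kb) in each comparison, with the authors' scaling and after quantile normalization. For C2 against OSKM the median goes down over the bins to −0.76 with the authors' scaling and stays between −0.11 and 0.14 after quantile normalization.

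H3K9me3, a mark of silent chromatin, was measured in other libraries, and its values were not used to choose the domains. The widths that did choose them came from H3K27ac peaks that were broad more often in C3, with a peak of 10000 bp in C3 alone at 151 domains and in OSKM alone at 11, and the part of this in the H3K9me3 counts was not tested. Of the 470 domains, 93 (19.8%) overlapped an H3K9me3 region, 123 regions in all with a median width of 854 bp, of which 102 lay wholly inside. In C3, H3K9me3 was lower than in OSKM at 66 of the 117 regions tested (56.4%), in 57 domains, and higher at 5. Over all 51633 regions tested 7.35% were lower and 1.72% higher (9.06% in all). The median log2 fold change was −1.30, against −0.06 over all regions. The median normalized reads were 41.4 and 33.4 in C3, against 89.4 and 84.4 in OSKM. The count of 66 was 22 without the first OSKM library and 34 without the second, and the median stayed between −1.42 and −1.0 under every setting. The H3K27ac of the domains with lower H3K9me3 in C3 had a median log2 fold change of −0.16.

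In C2, H3K9me3 was lower than in OSKM at 8 of 116 regions (6.90%) and higher at 2, against 2.90% lower and 0.389% higher over all 51633 regions (3.29% in all). The median log2 fold change was −0.38, against −0.15 over all regions. Scaling to reads in regions gave 5 lower and 5 higher, and the count of 8 was 3 without the first OSKM library, 16 without the first C2 library and 56 without the second. The 8 lay at Pigl, Atf1, Jam2, Gm41564, Gm40113, Loxl1 and, as a pair, Ppp2r2d, and all 8 were also called lower in C3 against the same OSKM libraries. The 2 higher lay at F2rl1 and Gm31068. C2 against C3 gave 3 regions higher (Gm41564, Platr3 and Smarcad1) and 1 lower (Gm11963) of 111, against 0.0465% higher and 0.0872% lower over all 51632 regions (0.134% in all), with a median log2 fold change of 0.96. The count of 3 was 27 without the first C2 library, 0 without the second, 26 without the first C3 library and 7 without the second.

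The Atf1 domain, the widest, held 4 H3K9me3 regions that did not move together. At chr15:100272001-100273879 normalized H3K9me3 reads were 1.15 and 1.39 in C2, the lowest value of the table, against 96.3 and 109 in OSKM (−5.51 ± 0.63, adjusted limma p 0.000677). In the table of C3 the same region had 12.9 and 1.52 in C3, against 107 and 119 in OSKM (−4.27 ± 0.69, adjusted limma p 0.00246). At chr15:100264403-100266012 the C3 libraries were higher, with 186 and 185, against 116 and 107 in OSKM (0.73 ± 0.19, adjusted limma p 0.0276). A region in the Ppp2r2d domain, a phosphatase subunit gene, was at 1 read in each C2 and C3 library, with 216 and 196 normalized reads in OSKM beside C2.

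In the Gm41564 domain, the tenth widest, H3K9me3 at chr17:31835212-31836492 was 130 and 159 normalized reads in C2, against 283 and 282 in OSKM, and 55.1 and 34.9 in C3, against 316 and 309 in OSKM. The log2 fold change was −0.97 ± 0.20 in C2 and −2.80 ± 0.24 in C3, with adjusted limma p of 0.0193 and 4.12e-05, and C2 was above C3 by 1.83 (adjusted limma p 0.0491). In the first Esrrb domain, H3K9me3 at chr12:86482523-86484996 was 171 and 166 in C3, against 381 and 380 in OSKM (−1.18 ± 0.14, adjusted limma p 0.000383). In C2 it was 204 and 254, against 342 and 347 in OSKM, and was not called (adjusted limma p 0.103). In the Smarcad1 domain, chr6:65017272-65020347 had 184 and 226 in C3, against 463 and 495 in OSKM (−1.22 ± 0.14, adjusted limma p 0.000316). C2 lay above C3 there by 1.29 (adjusted limma p 0.042).

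The domains with the most H3K9me3 reads were Gm34081, the second domain at H2al2a and Tra2a. In the Gm34081 domain, at 1 H3K27ac read in both lines, H3K9me3 over chr12:109525023-109532098 was 1342 and 1069 normalized reads in C3, against 846 and 752 in OSKM, and was called higher (0.59 ± 0.12, adjusted limma p 0.0076). In C2 it was 1042 and 747, against 758 and 687 in OSKM, and was not called (0.29 ± 0.17, adjusted limma p 0.417). H2al2a domain 2 and Tra2a, a splicing regulator, had lower H3K9me3 in C3, with log2 fold changes of −0.72 and −0.57 and adjusted limma p of 0.0017 and 0.00493.

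**Figure D5:**
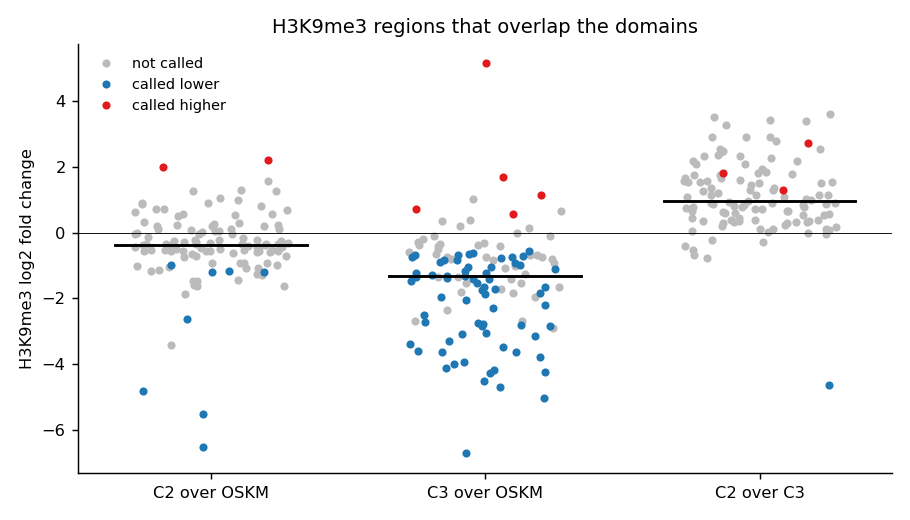
Log2 fold change of H3K9me3 (limma, authors' normalized reads) for the regions that overlap a broad H3K27ac domain, in C2 against OSKM, C3 against OSKM and C2 against C3, with called regions coloured and the median as a bar. The medians are −0.38, −1.30 and 0.96, and 66 of 117 regions are called lower in C3 against OSKM.

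HA peaks, the authors' calls of where tagged artificial factors bound at day 20, were scarce in the domains. The HA libraries are of cells at day 20 after transduction, whereas the domains come from H3K27ac libraries of the iPS lines. The domains with at least 1 peak were 2 and 8 of 470 in the C2 libraries, and 2 and 0 in the Empty libraries, which measure background of the antibody. No domain had a peak in both C2 libraries. The 8 were Fntb, Rab12, Tet2, C330002G04Rik domain 2, Ndufs4, Hmgb1-ps4, Jarid2 domain 2 and Tln2, and the 2 were Nrp2 domain 2 and Mkrn1 domain 1, of which Nrp2 domain 2 also had a peak in an Empty library. Peaks per Mb were 0.309 and 1.24 in the domains for C2 and 0.309 and 0 for Empty. In the other H3K27ac regions they were 5.14 and 17.5 for C2 and 2.49 and 8.88 for Empty. Counting a short region as hit when a peak merely touches it raises its density, and with summits alone the figures were 0.155 and 0.309 for C2 and 0.309 and 0 for Empty in the domains, against 3.81 and 14 for C2 and 2.08 and 6.24 for Empty in other regions. The HA libraries kept 1629753 to 3896935 tags after filtering, with a redundant share of 0.92 to 0.94. The part of depth in these counts was not tested.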

How the data were processed

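H3K27ac, H3K9me3 and HA ChIP-seq peaks of 16 of the 22 samples were used, and the 6 inputs were not analysed here. Per the submitters' processing notes, the authors' tools were DiffBind 1.16.2, SAMtools 1.3, CASAVA 1.8.2 and Bowtie2 2.2.5, on mm10. Each library's peaks were called against 1 input, per the file headers, with MACS 2.1.0.20150731 (histone marks) and 2.1.1.20160309 (HA) at a q-value of 0.01. C2 and OSKM shared a pair of inputs and C3 had its own pair, so the inputs cannot be told apart from the line in comparisons with C3. Per the file headers, 28947967 to 33760862 tags were kept in the H3K27ac libraries and 29264090 to 46304808 in the H3K9me3 libraries.

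The peak files deposited by the authors give the −log10 p-value and q-value of a peak and its fold enrichment, a ratio to the local background. The region tables deposited by the authors hold, for the union of peaks of all lines, the signal per library (normalized reads) beside the p-value, the FDR and the log2 fold change of a comparison. The columns of C3 are headed N2 and were taken as C3 from the tables' group column. Dividing by a library's lowest value, taken as a single read, gave whole reads for 100% of values within 1e-06. Whether control reads had been taken off first is not given in the sources used here.

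Each table was fitted on its own with limma 3.58.1 (R 4.3.3) with a trend, on log2(normalized reads + 1), for regions above the 25th percentile of mean reads, with calls where the p-value adjusted by Benjamini-Hochberg over all regions tested was under 0.05. The fit was tested on simulated data. Printed levels are recovered reads per kb scaled to the library's reads in regions (RPKM), and fold changes are on the scale of log2(normalized reads + 1), where 1 is the pseudocount, and understate changes of low regions. Alternatives included edgeR 4.0.16 and DESeq2 1.42.0 on recovered reads. Data handling used pandas 2.3.3, NumPy 2.4.6 and SciPy 1.17.1 in Python 3.11.15, figures matplotlib 3.10.9, and the R steps version 1.17.8 of the package data.table. Floors take in counting error alone, as reads carried no molecular identifiers.

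A domain is named by the gene with the largest overlap, or else the nearest gene. Named were the 10 widest domains, the 5 largest called changes in each direction, up to 6 domains per gene list within 2500 bp, the 3 just inside and outside the width limit and the 3 with the most H3K9me3 reads. Other names were chosen after their values were seen. The domains and gene lists were chosen with earlier results of these data known. Promoters of chromosome 18 were not used here, and a few named domains are not reported here.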

Additional observations from a re-analysis of the deposited data

Results flagged for a closer look

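In 13 of the 470 domains (2.77%) both C2 libraries lay below both OSKM libraries while both C3 libraries lay above them, as in 1530 of 98340 regions tested in both comparisons (1.56%). Values of 12 of the 13 are given here. The log2 fold changes against OSKM, in C2 and in C3, were −0.80 and 0.31 at Mras, −0.67 and 0.40 at Eps8, −0.55 and 0.46 at Gm46159, −0.50 and 0.38 at Gm10145, and −0.48 and 0.33 at H2al2a domain 1. At Gm13855 they were −0.43 and 0.43, at 5730522E02Rik −0.43 and 0.38, at Ly6g6d −0.42 and 0.14, and at Gtf2ird1 −0.36 and 0.11. At Pfdn4 they were −0.26 and 0.54, at Adamtsl1 −0.22 and 0.48, and at Vmp1 −0.10 and 0.30. None of these 12 was called in either comparison or in C2 against C3, where the limma adjusted p was 0.371 at Eps8, the lowest, and 0.836 at Vmp1, the highest. The 2 comparisons share the OSKM libraries. Mras is a small GTPase and Eps8 an actin-capping adaptor of receptor signalling.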

How the results depend on the processing

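For the 470 domains in C2 against OSKM, the count lower (82) was 308 by DESeq2, 232 by edgeR, 237 with median-centred libraries, 177 with libraries scaled to reads in regions (an alternative chosen after seeing the data), 35 at a width of 12000 bp, 18 in the authors' deposited table, 7 after quantile normalization and 1 to 370 with a library left out. The count higher (5) was 11, 11, not moved, 37, 1, 3, 67 and 3 to 23 in the same order. The median (−0.65) was −0.30 scaled to reads in regions, 0.13 after quantile normalization and −0.87 to −0.45 with a library left out.

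In C3 against OSKM, the count higher (23) was 38 by DESeq2, 15 median-centred, 69 scaled to reads in regions, 109 after quantile normalization, 14 in the authors' deposited table, 6 at 12000 bp and 3 to 125 with a library left out. The count lower (12) was 58 by DESeq2, 20 by edgeR, 62 scaled to reads in regions, 26 after quantile normalization, 4 at 12000 bp and 1 to 226 with a library left out. The median (−0.15) was 0.10 after quantile normalization and −0.41 to 0.12 with a library left out. In C2 against C3 the count lower (0) was 11 by DESeq2, 1 scaled to reads in regions and 0 to 1 with a library left out, and the median (−0.49) was 0.029 after quantile normalization and −0.75 to −0.24 with a library left out.

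For H3K9me3 in C2 against OSKM, the count higher (2) was 6 by DESeq2 and by edgeR, 5 in the authors' deposited table, with a pseudocount of 8 and scaled to reads in regions, 1 without chromosomes 8, X and Y and after quantile normalization, 0 without the filter on low values and 1 to 17 with a library left out. The count lower (8) was 5 by DESeq2, after quantile normalization and scaled to reads in regions, and 3 to 56 with a library left out, and the median (−0.38) was −0.055 scaled to reads in regions and −0.65 to −0.019 with a library left out. In C3 against OSKM the count higher (5) was 3 in the authors' deposited table and 2 to 5 with a library left out, the count lower (66) was 22 to 81, and the median (−1.30) was −1.0 scaled to reads in regions and −1.42 to −1.09 with a library left out. In C2 against C3 the count higher (3) was 11 by DESeq2, 7 by edgeR, 21 in the authors' deposited table, 1 without chromosomes 8, X and Y, 5 median-centred, 22 without the filter, 8 with a pseudocount of 8 and 0 to 27 with a library left out, and the count lower (1) was 0 without chromosomes 8, X and Y and 0 to 1 with a library left out. Its median (0.96) was 0.63 to 1.27. Over all H3K9me3 regions, DESeq2 called 0.583% higher and 1.53% lower in C2 against OSKM, and 0.19% higher in C2 against C3.

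Same-numbered libraries share only a number: with 2 pairs their deviations correlated at −0.054 (C2 and OSKM), −0.041 (C3 and OSKM) and 0.346 (C2 and C3) for H3K27ac, and at 0.002, 0.035 and 0.107 for H3K9me3. With the replicate block, H3K27ac gave 121 lower and 7 higher in C2 against OSKM, 9 lower and 21 higher in C3 against OSKM, and 335 lower and 1 higher in C2 against C3. Over all H3K27ac regions the block gave 8.78% lower and 8.10% higher, 11.0% and 16.2%, and 9.44% and 3.92%, in the same order. With the replicate block, H3K9me3 gave 19 lower and 9 higher in C2 against OSKM and 26 higher in C2 against C3. Over all H3K9me3 regions these were 5.58%, 1.08% and 0.602%.

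With HA summits required inside, 1 and 2 domains had a peak in the C2 libraries, against 2 and 8. Joining peaks within 1000 bp moved the domains with 1 peak of 10000 bp to 404 and 171 in C2, 410 and 425 in C3, and 348 and 329 in OSKM, and a −log10 q of at least 5 moved none. Over 143 results of single domains and 2002 values under alternatives, 0 called values turned their sign, 67 called values lost and 222 gained the call. With a library left out, the lone library of a line is assumed to vary like the other line. The cause of these changes was not tested. The second C2 library, with the fewest reads in regions, had 29774623 tags after filtering, more than either OSKM library.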
